A study of Mus musculus with 31 samples.

Results

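Homologous recombination copies an intact sister strand to mend broken or collapsed DNA, and the DNA damage checkpoint holds the cell cycle while this is done. This report covers 36 genes of both systems, chosen by symbol and not by their values, though with earlier results of these data known. A probe set carrying 1 of these symbols was found for 34 of them, with 73 probe sets in all, among 18193 genes and 45037 probe sets in the table. *Rbbp8* and *Xrcc2* were not analysed here. The genes were followed through mammary tumorigenesis in K5ΔNβcat mice and, apart from that, in sorted mammary basal cells with and without *Myc*.

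K5ΔNβcat mice carry an N-terminally truncated, stabilised β-catenin under the keratin 5 promoter, which is active in the basal layer of the mammary epithelium, where hyperplasias and then tumors arise. Tissue was profiled from 4 samples of control mammary gland without the transgene, and K5ΔNβcat mice gave 5 small hyperplasias, 5 large hyperplasias and 11 tumors. The sorted basal cells came from control mice (n = 3 pools) and from K5creMycL/L mice (n = 3 pools), in which Cre under the keratin 5 promoter deletes floxed *Myc*, and neither group of sorted cells was said to carry the β-catenin transgene. All mice were labelled C57BL6, while the methods of the study give a mixed 129SV/C57BL6 background, and ages were not given with the arrays. RNA of tissue and of sorted cells was labelled with different kits, so that both materials were never compared with each other.

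In the repair of a double-strand break, the MRE11, RAD50 and NBN complex opens the ends, EXO1 and the BLM helicase extend the resection, and BRCA1, PALB2 and BRCA2 prepare the single strand for its exchange with the sister. The Fanconi anemia core complex, with the E2 enzyme UBE2T, attaches ubiquitin to FANCD2 and FANCI at crosslinked or stalled forks, and USP1 removes it again. ATM and ATR are the kinases at the head of the checkpoint, CHEK2 and CHEK1 are their main effector kinases, and TOPBP1, claspin, TIMELESS and TIPIN serve ATR at the replication fork. Loss of *BRCA1* is a well-known route to basal-like breast cancer in women. Many genes of these systems are expressed mainly in cycling cells.

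One regulatory feature was common among their promoters. Of the 34 genes, 27 had a promoter window in RefSeq (GRCm38.p6), covering 250 bases before and 50 bases after the start site, and 28 windows were read because *Rad54l* has 2. An E2F-like motif (TTCGCGC, or else TTGGCGC, or else TTCCCGC, on either strand) was present in 16 of the 28 windows, that is 57.1%, against 8.07% of all 32851 windows of this length. The 4 windows printed here belong to the genes with the largest rises in tumors whose window held the motif, and the capitals mark the motif, read in each case on the opposite strand. All are written 5′ to 3′ in the direction of the gene.
*Chek1*, chr9:36726609-36726908, minus strand: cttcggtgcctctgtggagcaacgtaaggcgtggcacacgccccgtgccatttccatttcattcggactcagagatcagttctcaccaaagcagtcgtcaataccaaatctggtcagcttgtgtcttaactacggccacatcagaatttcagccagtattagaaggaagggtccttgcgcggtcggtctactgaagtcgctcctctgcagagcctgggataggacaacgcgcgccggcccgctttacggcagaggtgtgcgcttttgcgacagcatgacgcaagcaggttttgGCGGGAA
*Rad51ap1*, chr6:126939538-126939837, minus strand: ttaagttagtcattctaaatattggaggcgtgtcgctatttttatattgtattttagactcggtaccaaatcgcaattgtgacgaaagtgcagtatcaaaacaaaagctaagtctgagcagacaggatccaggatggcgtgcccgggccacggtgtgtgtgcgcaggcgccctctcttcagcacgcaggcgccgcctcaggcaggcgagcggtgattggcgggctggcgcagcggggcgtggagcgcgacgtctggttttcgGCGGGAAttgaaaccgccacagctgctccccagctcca
*Clspn*, chr4:126556730-126557029, plus strand: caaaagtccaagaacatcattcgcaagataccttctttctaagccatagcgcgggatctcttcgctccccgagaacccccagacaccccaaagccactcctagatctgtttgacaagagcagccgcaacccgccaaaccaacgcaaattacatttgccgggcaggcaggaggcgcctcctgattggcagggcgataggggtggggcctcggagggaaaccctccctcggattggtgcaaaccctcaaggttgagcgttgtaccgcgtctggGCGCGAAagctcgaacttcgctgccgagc
*Brca1*, chr11:101551906-101552205, minus strand: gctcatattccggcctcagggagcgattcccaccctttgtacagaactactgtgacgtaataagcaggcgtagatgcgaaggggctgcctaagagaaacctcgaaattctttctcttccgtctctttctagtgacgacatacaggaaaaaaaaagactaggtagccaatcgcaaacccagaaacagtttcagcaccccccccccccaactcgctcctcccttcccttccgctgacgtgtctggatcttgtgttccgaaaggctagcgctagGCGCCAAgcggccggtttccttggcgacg
In these windows the motif began downstream of the annotated start, at base 13 in *Rad51ap1*, base 22 in both *Clspn* and *Brca1* and base 44 in *Chek1*. The CCAAT box (CCAAT, either strand), a promoter element bound by NF-Y, was present in 60.7% of the member windows against 37.4% of all windows. The CHR element of genes expressed in mitosis (TTTGAA, either strand) was present in 7.14% against 17.9%, and the E-box CACGTG, which Myc can bind, in 3.57% against 7.15%. For comparison, the E2F-like motif was present in 17 of 38 windows (44.7%) of the other recombination and checkpoint genes described below and in 3 of 10 of the end joining genes. Likewise, 4 of 14 windows of the proliferation markers held the E2F-like motif and 7 of 14 the CHR element. A match of letters is a description of the sequence and does not show that a factor was bound.

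Split by the change in tumors described below, the motif was found in 7 of the 13 windows of members that rose, in 1 of the 4 windows of members that fell (*Atm*) and in 8 of the 11 windows of members that were not called or not tested.

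The values are MAS5 signals, linear intensities scaled so that the trimmed mean of each array is 100, and the study set the background level at a signal of 30. Array medians were 23.9 to 32.9 in tissue and 13.2 to 19.7 in sorted cells, so that several members lay close to background. Proliferation markers rose in tumors (15 of 15 tested), with summed signals between 1175 and 1606 in control samples, between 2133 and 3647 in small hyperplasias, between 3390 and 4671 in large ones and between 4150 and 5779 in tumors. Basal epithelial markers rose (5 of 5), from 676 to 934 in control tissue to 8066 to 12692 in tumors, and adipocyte markers fell (5 of 5), from 38090 to 41933 down to 639 to 6132. On every control array, 4 of the 16 proliferation markers were below 30, and none of the 5 basal or 5 adipocyte markers was. The part of proliferation and of tissue composition in the differences below was not tested. In whole tissue, fewer cells of a type cannot be told apart from less RNA per cell.

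Tumors differed from control tissue in most measured members. Of 34 members, 25 had a median of at least 30 in tumors or control tissue and were tested: 15 rose, 6 fell and 4 were not called at an adjusted p under 0.05. Over all 24086 probe sets tested, 33.2% were called higher and 35.9% lower, so that 69.1% of the array was called in this comparison. The median log2 difference of the tested members was 0.46, against -0.03 over all tested probe sets. Only 5 of the 15 members that rose had a median of at least 30 in control tissue, and the other 10 entered the test through the tumors, whereas all 6 that fell were above 30 in both groups. The rises were led by *Chek1*, *Timeless*, *Rad51ap1*, *Clspn* and *Brca1*, and the falls by *Rad50*, *Nbn*, *Fancc* and *Atm*. When all probe sets of a gene were averaged, which left 18 members testable, 8 rose and 4 fell, and by the fold rule of the study's methods, without a test, a fold of mean signals above 2, 10 were higher and none lower, against 15% and 15.1% of all probe sets.

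**Figure D1:**
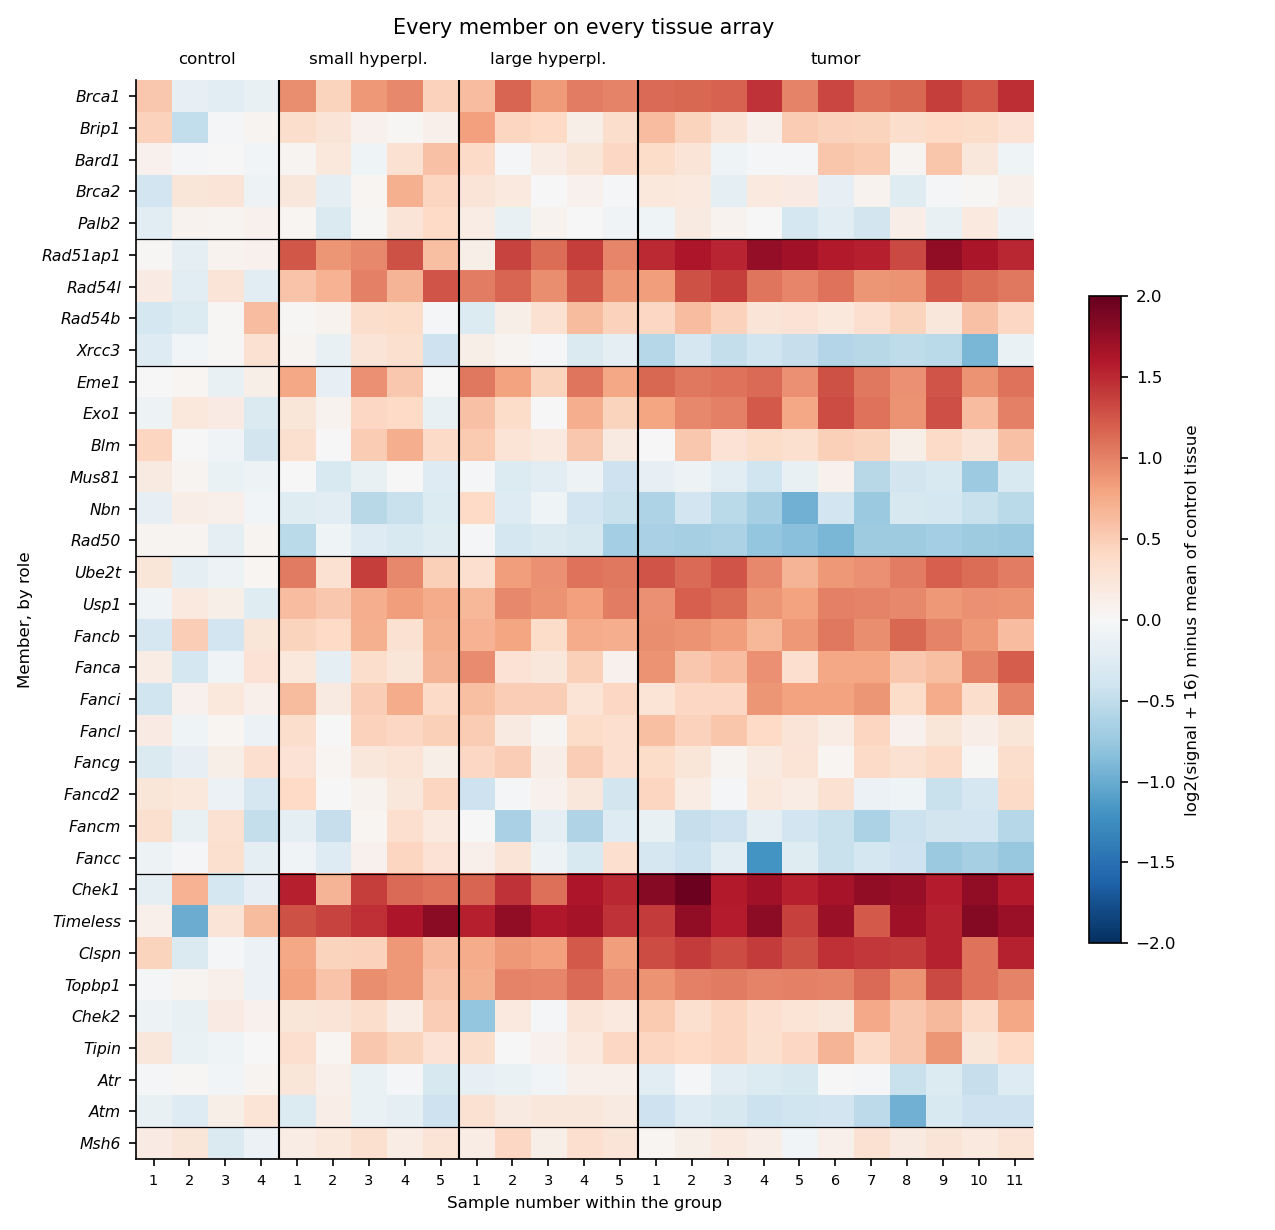
Each row is 1 of the 34 members, grouped by role, and each column 1 of the 25 tissue arrays. Colour gives log2(signal + 16) minus the mean of the 4 control samples, red for higher and blue for lower. *Chek1*, *Timeless*, *Clspn* and *Rad51ap1* are red across all 11 tumors, and *Rad50* is blue across all of them.

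Among the genes of the BRCA complexes, *Brca1* was the one called. Its signals in control tissue were 30.1, 12.4, 11.2 and 12.7, in small hyperplasias 44.7, 27.5, 41.8, 46.2 and 28.0, and in large hyperplasias 32.8, 55.1, 41.2, 48.5 and 47.4. In tumors they ran from 47.0 over a median of 56.0 to 72.4. Every tumor and every large hyperplasia lay above every control sample, while control sample 1 reached into the range of the small hyperplasias. The log2 difference of tumors from control tissue was 1.23 ± 0.13 (SE, adjusted p = 1.0e-08), a ratio of mean signals of 3.56. It was 0.93 ± 0.15 (adjusted p = 2.4e-05) in large and 0.74 ± 0.15 (adjusted p = 0.00070) in small hyperplasias. These 3 comparisons, like all others with control tissue below, share the same 4 control samples.

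The partners of *Brca1* were not called or not tested. *Brca2*, a mediator of strand exchange, had mean signals of 38.9 ± 5.2 (SD, n = 11) in tumors against 38.4 ± 11.0 (n = 4) in control samples, and the log2 difference was 0.03 ± 0.13 (SE, adjusted p = 0.86). *Palb2*, which bridges BRCA1 and BRCA2, differed by -0.06 ± 0.12 (adjusted p = 0.66). *Bard1*, the obligate partner of BRCA1 in its ubiquitin ligase, and *Brip1*, a helicase bound by BRCA1, were below a median of 30 in every tissue group and were not tested, with mean signals of 4.41 and 14.6 in tumors against 1.39 and 7.93 in control tissue.

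The strand exchange genes that could be tested both rose. *Rad51ap1*, whose product helps to form the joint between strands, had signals of 10.4, 6.94, 11.2 and 11.6 in control tissue. In small hyperplasias they were 45.3, 31.8, 34.6, 47.0 and 23.5, in large hyperplasias 12.1, 50.5, 40.2, 52.0 and 35.1, and in tumors 48.8 at the lowest, 62.2 at the median and 72.8 at the highest. All lesions lay above all control samples, large hyperplasia 1 by the least. The log2 difference in tumors was 1.59 ± 0.16 (SE, adjusted p = 2.6e-09). Since every control sample was below background, the rise is given as at least 2.06-fold, computed from the tumors' mean log2 signal against a signal of 30. *Rad54l*, a motor protein that drives strand exchange, rose by 1.07 ± 0.12 (adjusted p = 3.4e-08, at least 1.69-fold). *Rad54b*, its relative, and *Xrcc3*, a gene of strand exchange and junction processing, were not tested, and their mean signals were 12.1 and 14.1 in tumors against 6.21 and 26.5 in control tissue.

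Genes of end processing and junction resolution moved both ways. *Exo1*, the exonuclease of long-range resection, rose by 1.00 ± 0.14 (SE, adjusted p = 8.1e-07). Its signals were 10.8, 17.5, 16.5 and 7.68 in control tissue, 18.2, 14.3, 22.5, 22.1 and 10.1 in small hyperplasias, 27.4, 21.3, 12.9, 31.7 and 23.3 in large hyperplasias, and 28.4 to 55.5 with a median of 41.8 in tumors. Tumors and control tissue did not overlap, and the rise was at least 1.38-fold, whereas *Exo1* was not tested in the hyperplasias, where both medians were below 30.

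*Blm*, the helicase of resection and junction dissolution, had control signals of 40.4, 26.3, 23.6 and 16.4. Small hyperplasias gave 36.02, 25.5, 43.2, 53.3 and 38.7, large hyperplasias 44.1, 34.6, 32.02, 44.8 and 31.2, and tumors 26.1 to 47.1 with a median of 38.0. The groups overlapped, and the difference of 0.34 ± 0.13 (SE, adjusted p = 0.024) in tumors was lost when signals were floored at 30 (0.21, adjusted p = 0.17) and without control sample 3 (0.32, adjusted p = 0.066) or 4 (0.22, adjusted p = 0.17).

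*Rad50* and *Nbn*, which hold the broken ends in the MRN complex, fell. *Rad50*, shown after its values were seen, had signals of 204, 204, 171 and 205 in control tissue. They were 129, 183, 160.3, 155 and 163 in small hyperplasias, 191, 149.98, 157, 153 and 116 in large hyperplasias, and 96.1 to 120.2 with a median of 113 in tumors. All tumors lay below all control samples and below all small hyperplasias. The log2 difference in tumors was -0.73 ± 0.09 (SE, adjusted p = 1.3e-07), and *Rad50* was the one member that fell in all 3 lesion stages, by 0.33 ± 0.11 (adjusted p = 0.012) in large and by 0.29 ± 0.11 (adjusted p = 0.039) in small hyperplasias. The fall in small hyperplasias did not pass when any of 6 single samples was left out. *Nbn* fell in tumors by 0.54 ± 0.13 (adjusted p = 0.00058). *Mus81*, the catalytic subunit of a junction-cutting nuclease, fell by 0.29 ± 0.12 (adjusted p = 0.027), a call lost without control sample 1 or 2. Its partner *Eme1* was not tested, with mean signals of 25.1 in tumors and 3.52 in control tissue.

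**Figure D2:**
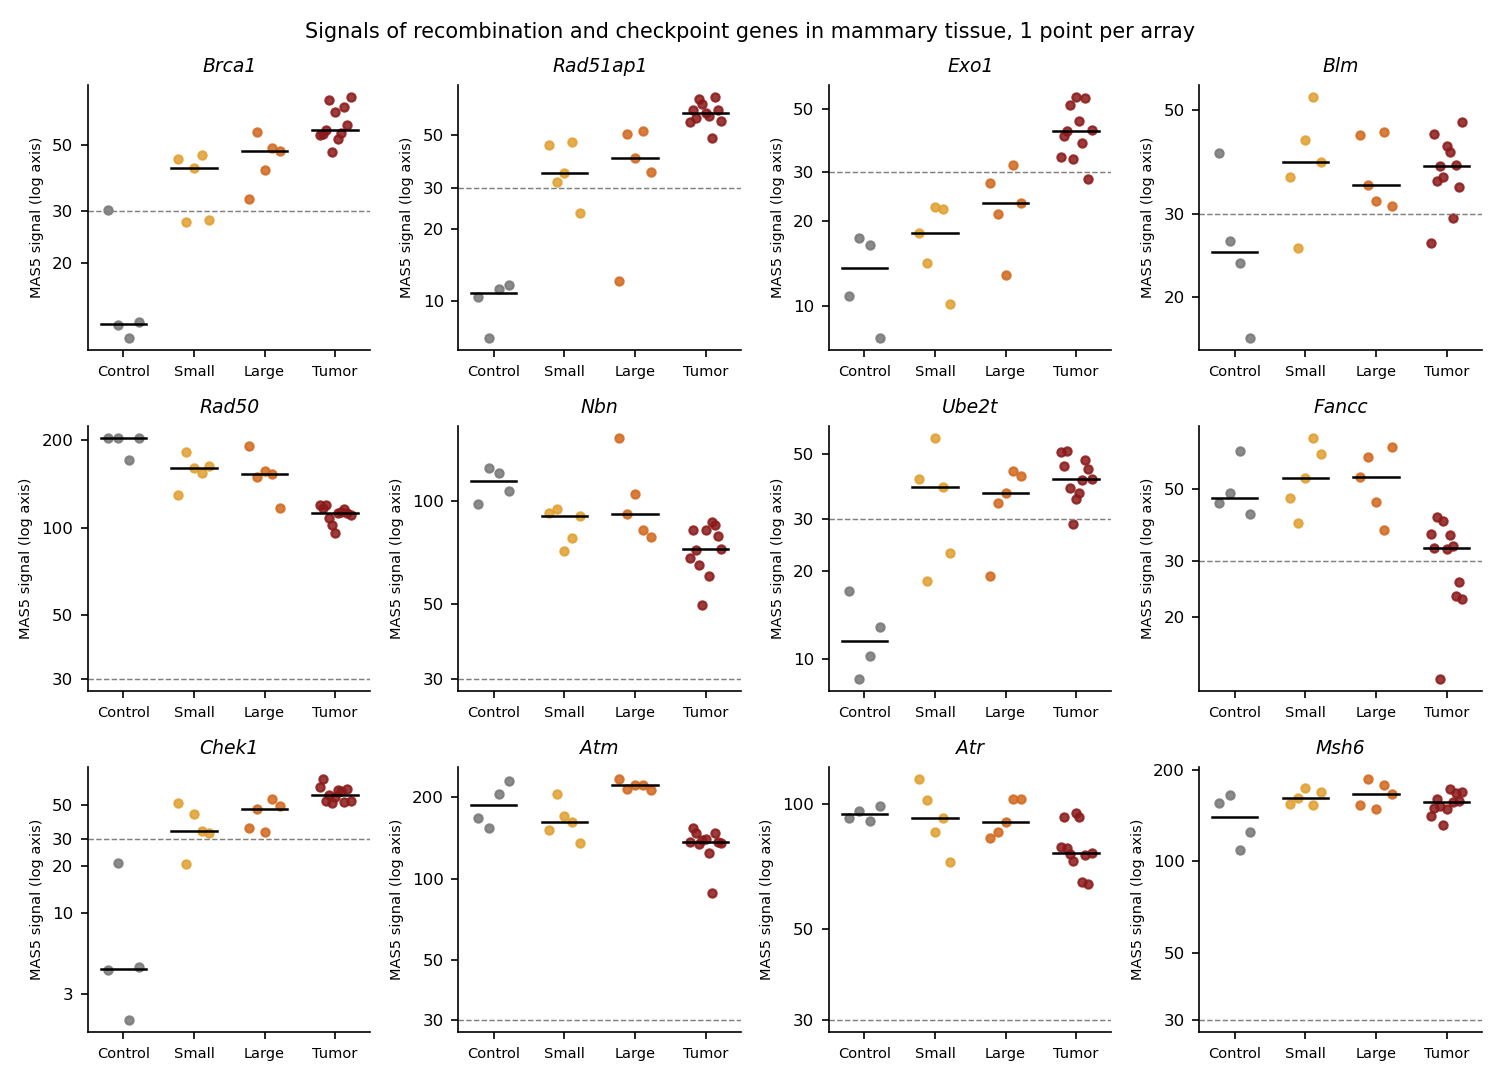
MAS5 signal (log axis) of 12 members in the 4 tissue groups, 1 point per array, with the median as a bar and the background level of 30 as a dashed line. *Brca1*, *Rad51ap1*, *Exo1*, *Ube2t* and *Chek1* stand higher in all tumors than in all control samples, *Rad50*, *Nbn* and *Fancc* stand lower, and *Blm*, *Atm*, *Atr* and *Msh6* overlap.

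In the Fanconi anemia pathway, 4 members rose and 1 fell in tumors. *Ube2t*, which supplies the ubiquitin, had signals of 17.1, 8.54, 10.2 and 12.8 in control tissue. They were 41.3, 18.5, 56.9, 38.7 and 23.1 in small hyperplasias, 19.2, 34.0, 36.8, 43.7 and 42.0 in large hyperplasias and 28.8 to 51.2, with a median of 41.2, in tumors. Every lesion lay above every control sample. The log2 difference in tumors was 1.04 ± 0.16 (SE, adjusted p = 2.3e-06), or at least 1.38-fold. *Usp1*, which removes the ubiquitin, rose from a mean signal of 248 ± 35 (SD, n = 4) to 495 ± 45 (n = 11), by 0.96 ± 0.08 (SE, adjusted p = 2.6e-10), and its other tested probe sets rose by less, 0.23 and 0.28. Of the core complex, *Fanca* rose by 0.74 ± 0.16 (adjusted p = 0.00025) and *Fancl*, its ubiquitin ligase subunit, by 0.32 ± 0.11 (adjusted p = 0.0095), a call lost when its probe sets were averaged (0.17, adjusted p = 0.080). *Fancg* was 0.24 ± 0.11 higher and just missed the threshold (adjusted p = 0.050), which it passed without the offset or after quantile normalization, and its other tested probe set was not called either (-0.24, adjusted p = 0.12).

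*Fancc*, another subunit of the core complex, went the other way. Its signals were 45.4, 48.6, 65.8 and 42.0 in control tissue, 46.8, 39.2, 53.9, 72.3 and 64.4 in small hyperplasias, and 54.5, 63.0, 45.6, 37.3 and 67.4 in large hyperplasias. In tumors they ran from 12.8 over 32.9 to 40.9, below all control samples. The fall of 0.53 ± 0.16 (SE, adjusted p = 0.0045) was seen in tumors, while the hyperplasias differed from control tissue by 0.06 ± 0.18 (large, adjusted p = 0.81) and 0.09 ± 0.18 (small, adjusted p = 0.72). *Fancb*, *Fancm*, *Fancd2* and *Fanci* were below a median of 30 in tumors and control tissue and were not tested. Their mean signals in tumors and control tissue were 26.9 and 7.76 for *Fancb*, 14.9 and 25.7 for *Fancm*, 20.6 and 19.1 for *Fancd2*, and 23.0 and 9.11 for *Fanci*.

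All 8 checkpoint genes were tested, of which 6 rose and 2, the kinases at the head of the pathway, fell. *Chek1*, the effector kinase of ATR, had the largest rise of all members. Its signals were 4.26, 21.1, 2.03 and 4.51 in control tissue, 51.4, 20.6, 43.8, 34.1 and 32.6 in small hyperplasias, 35.5, 46.9, 33.2, 54.6 and 49.1 in large hyperplasias, and 51.6 to 73.8 with a median of 57.8 in tumors. Large hyperplasias and tumors lay above all control samples, and small hyperplasia 2 overlapped with control sample 2. The log2 difference in tumors was 1.70 ± 0.15 (SE, adjusted p = 3.7e-10), or at least 1.96-fold, and it was 1.37 ± 0.18 (adjusted p = 7.9e-07) in large and 1.16 ± 0.18 (adjusted p = 2.2e-05) in small hyperplasias.

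The fork proteins that activate CHEK1 rose with it. *Timeless* rose by 1.61 ± 0.18 (SE, adjusted p = 1.7e-08), *Clspn*, which encodes claspin, by 1.37 ± 0.12 (adjusted p = 1.2e-10) and *Topbp1*, the activator of ATR, by 1.03 ± 0.09 (adjusted p = 9.6e-11). *Tipin*, the partner of TIMELESS, rose by 0.46 ± 0.11 (adjusted p = 0.00040). *Chek2*, the effector kinase of ATM, rose by 0.47 ± 0.14 (adjusted p = 0.0044).

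*Atm* and, at the threshold, *Atr* were called lower in tumors. *Atm* had signals of 168, 154, 205 and 229 in control tissue, 151, 205, 169.8, 161 and 136 in small hyperplasias, 234, 214, 221, 221 and 213 in large hyperplasias and 88.6 to 154 with a median of 137 in tumors. Large hyperplasias lay above all small hyperplasias and all tumors but overlapped with control tissue, from which they were not called different (0.22, adjusted p = 0.15). The log2 difference of tumors from control tissue was -0.44 ± 0.11 (SE, adjusted p = 0.0010). The other tested probe set of *Atm* fell alike in tumors (-0.45, adjusted p = 0.00021), with mean signals of 109.9 in control tissue, 79.7 in small and 99.1 in large hyperplasias and 76.6 in tumors. *Atr* had 92.7, 96.5, 90.8 and 98.8 in control tissue, 115, 102, 85.5, 92.7 and 72.6 in small hyperplasias, 82.9, 85.4, 90.5, 103 and 103 in large hyperplasias and 64.1 to 94.9 with a median of 76.3 in tumors. The groups overlapped, and its fall of 0.23 ± 0.10 (adjusted p = 0.041) lay at the threshold, missing it without any of 10 single samples and after quantile normalization (-0.21, adjusted p = 0.060). It rested on 1 probe set of *Atr*, as another was not called (-0.25, adjusted p = 0.11), the remaining one, not tested, differed by 0.32, and the average of all by -0.05 (adjusted p = 0.72).

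The mismatch recognition gene *Msh6* was not called in tumors. Its signals were 156, 165, 109 and 124 in control tissue, 154, 161, 175, 154 and 169 in small hyperplasias, 153, 187, 149, 178 and 166 in large hyperplasias and 132 to 173 with a median of 157 in tumors. The groups overlapped, with a log2 difference of 0.16 ± 0.09 (SE, adjusted p = 0.11) in tumors and of 0.25 ± 0.10 (adjusted p = 0.042) in large hyperplasias, the latter lost without any of 5 single samples and smallest without control sample 3 (0.16, adjusted p = 0.21).

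Of the 15 members that rose in tumors, 9 were also called higher in both stages of hyperplasia. In large hyperplasias 24 members were tested, of which 11 were higher and 1 lower than in control tissue, where 25.6% and 20.1% of all 24001 tested probe sets were called. In small hyperplasias 24 were tested, of which 11 were again higher and 1 lower, against a background of 16.8% and 14.4% of 23489 probe sets. In both stages the member that fell, by its brightest probe set, was *Rad50*. A dimmer probe set of *Atm* was called lower in small hyperplasias (-0.41, adjusted p = 0.0065), as was the average of its probe sets (-0.29, adjusted p = 0.014). In large hyperplasias a dimmer probe set of *Atr* was called higher (0.82, adjusted p = 0.010), as was the average (0.37, adjusted p = 0.030). The brightest of *Atr* differed there by -0.03 (adjusted p = 0.86). Of the 11 called higher, 3 in large and 4 in small hyperplasias had a median of at least 30 in control tissue. The others entered the test through the lesions alone, among them each of the 9 shared members except *Usp1* and *Topbp1*. These 9 were *Brca1*, *Rad51ap1*, *Rad54l*, *Ube2t*, *Usp1*, *Chek1*, *Topbp1*, *Clspn* and *Timeless*. Their log2 differences in small hyperplasias ran from 0.63 ± 0.13 (*Clspn*) to 1.501 ± 0.20 (*Timeless*). *Fancg* (0.37 ± 0.12) and *Msh6* were called in large hyperplasias alone, and *Fancl* (0.34 ± 0.12) and *Tipin* (0.33 ± 0.12) in small hyperplasias and tumors. *Exo1*, *Blm*, *Fanca* and *Chek2* were called in neither stage of hyperplasia. The calls of *Fancl* and *Tipin* in small hyperplasias were lost without any of 7 and any of 6 single samples, and that of *Fancg* without control sample 1 or 2. When signals were floored at 30, the members called higher in small hyperplasias went from 11 to 6, the losses being *Brca1*, *Rad51ap1*, *Ube2t*, *Chek1* and *Clspn*, whose control signals were mostly below that level.

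Between large and small hyperplasias a single member was called by its brightest probe set. Of 24 tested, *Atm* was higher in large hyperplasias, by 0.40 ± 0.12 (SE, adjusted p = 0.033), and none was lower, against 5.01% and 4.62% of 23456 probe sets. The groups did not overlap, with signals of 213 to 234 in large and 136 to 205 in small hyperplasias, but the call was lost without any of 7 single samples and after the methods' t-test (adjusted p = 0.11). A dimmer probe set of *Timeless* was also higher in large hyperplasias (0.42 ± 0.12, adjusted p = 0.028), while the brightest differed by 0.11 ± 0.19 (adjusted p = 0.76).

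Between large hyperplasias and tumors the members moved both ways, and the genes called were partly others than those of the first step. Of 24 tested, 7 were higher in tumors and 4 lower, against 21% and 32.9% of 23747 probe sets. Quantile normalization shifted the balance of this comparison over the whole array, from 4979 higher and 7821 lower to 5982 higher and 6152 lower. *Rad51ap1* was higher by 0.60 ± 0.15 (SE, adjusted p = 0.0015), *Exo1* by 0.57 ± 0.13 (adjusted p = 0.00077), *Chek2* by 0.50 ± 0.13 (adjusted p = 0.0022) and *Clspn* by 0.48 ± 0.11 (adjusted p = 0.00062). Smaller rises in *Chek1* (0.34 ± 0.14, adjusted p = 0.048), *Brca1* (0.30 ± 0.12, adjusted p = 0.040) and *Tipin* (0.26 ± 0.10, adjusted p = 0.028) lay near the threshold, and without large hyperplasia 3 the members called higher went from 7 to 4. Large hyperplasia 1 had the lowest *Rad51ap1* and *Chek2* signals of its group, and without it their differences were 0.38 (adjusted p = 0.0075) and 0.31 (adjusted p = 0.014). *Atm* was lower by 0.66 ± 0.10 (adjusted p = 7.9e-06) with no overlap between the groups, and *Fancc* was lower by 0.59 ± 0.14 (adjusted p = 0.0015), *Rad50* by 0.40 ± 0.08 (adjusted p = 0.00034) and *Nbn* by 0.39 ± 0.12 (adjusted p = 0.0075), the last being lost without large hyperplasia 1 (-0.25, adjusted p = 0.055). *Atr* was not called by its brightest probe set (-0.20, adjusted p = 0.061). Its other probe sets were both called lower (-0.56, adjusted p = 0.00058, and -0.50, adjusted p = 0.043), as was the average (-0.42, adjusted p = 0.0030). A dimmer probe set of *Mus81* was also lower (-0.26, adjusted p = 0.036), unlike its brightest (-0.08, adjusted p = 0.52). *Timeless*, *Usp1*, *Topbp1* and *Rad54l*, all of them called higher in large hyperplasias before, differed between large hyperplasias and tumors by -0.00 ± 0.16, 0.08 ± 0.08, 0.09 ± 0.08 and 0.03 ± 0.12 and were not called. Between both stages adipocyte and lymphocyte markers also fell (5 of 5 and 6 of 6 tested), lymphocyte markers from summed signals of 304 to 826 in large hyperplasias to 56.2 to 297 in tumors, and their part in the lower members was not tested.

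The spread of the members among tumors was read beside that of the array. The median SD among the 11 tumors was 0.17 on the log2 scale over the 34 members, against 0.21 over all probe sets tested against control tissue. These sets are unlike, as the 34 include 9 members too dim to be tested, whose spread the offset shrinks. The mean difference of all 34 members from control tissue, on the same scale, was 0.37 to 0.52 in the 11 tumors, 0.34 to 0.48 in the 5 large and 0.16 to 0.46 in the 5 small hyperplasias, with small hyperplasia 2 the lowest. That sample also had the lowest *Mki67* signal of the lesions, 209.6 against 342 to 591 in the other hyperplasias. Tumors 1 to 3 had array medians of 29.1 to 29.6 and tumors 4 to 11 of 23.9 to 26.7. With tumors 4 to 11 alone, 15 members were called higher and 6 lower than in control tissue, as with all tumors, and with tumors 1 to 3 alone 13 were higher and 3 lower.

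The neighbouring pathways were read beside these members. Of 42 other recombination and checkpoint genes, 35 were tested in tumors against control tissue, where 15 were higher and 5 lower. Of all 24086 probe sets tested, 33.2% were higher and 35.9% lower, and these shares also stand beside the end joining genes below. The largest rises were those of *Dtl*, the substrate receptor of the ubiquitin ligase that degrades replication licensing factors (1.40 ± 0.15, at least 1.84-fold), *Dna2*, a nuclease of end resection (1.07 ± 0.11), and *H2ax*, the histone phosphorylated at breaks (1.02 ± 0.14). The largest falls were those of *Rad51d*, a gene of homologous recombination (-1.55 ± 0.11), *Atrip*, the partner of ATR (-0.71 ± 0.17, at least 1.28-fold lower), and *Rif1*, which restrains resection (-0.62 ± 0.15). *Rad51d* had mean signals of 119.9 ± 28.0 (SD, n = 4) in control tissue, 65.7 ± 12.1 (n = 5) in small hyperplasias, 52.9 ± 8.4 (n = 5) in large hyperplasias and 29.6 ± 2.8 (n = 11) in tumors, and it was called lower in all 3 stages. Of 10 end joining genes tested, *Polm* (0.91 ± 0.14, at least 1.72-fold), *Xrcc5* (0.54 ± 0.17) and *Lig4* (0.42 ± 0.11) rose, and *Prkdc* (-0.36 ± 0.13) and *Parp1* (-0.35 ± 0.09) fell.

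Targets of p53, which the checkpoint kinases can activate, were called higher in tumors for 9 and lower for 3 of 15 tested. Of all probe sets tested, 33.2% were called higher and 35.9% lower. *Pmaip1*, which encodes the death protein Noxa, rose by 4.34 ± 0.26 (SE, adjusted p = 2.7e-13), at least 18.8-fold, from signals below 30 in control tissue to a mean of 599 ± 204 (SD, n = 11) in tumors. *Cdkn1a*, the p21 inhibitor of the cell cycle, rose by 2.26 ± 0.20 and *Trp53inp1* by 1.39 ± 0.13, whereas *Phlda3* (-1.01 ± 0.11), *Fas* (-0.99 ± 0.23) and *Sesn1* (-0.52 ± 0.15) fell. *Pmaip1* and *Cdkn1a* also differed between large hyperplasias and tumors, by 2.80 ± 0.24 and 1.00 ± 0.18.

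In sorted basal cells, loss of *Myc* left no member past the threshold, and the members that were lower came with high spread between pools. *Myc* itself had signals of 1479, 1677 and 1869 in control pools and 141, 428 and 42.3 in *Myc*-deficient pools, which did not overlap. Of 34 members, 23 were tested and none was called, nor was any of 19737 probe sets over the array (0%). At an unadjusted p under 0.05, 2 members were lower and none higher, against 3.68% and 2.7% of all probe sets. Of the 23, 20 had negative differences, with a median of -0.32 against -0.003 over all tested probe sets. All 23 had a median of at least 30 in control pools, and 16 of them also in *Myc*-deficient pools. The rest thus entered the test through the control pools alone, which leans the count of members towards negative signs. The filter itself treats both groups alike, and the share of negative signs over all probe sets was not counted. Standard errors were 0.33 to 0.65 on the log2 scale, several times those in tissue, so that differences of the size seen in lesions could not be told from 0 here. By the rule of the study's methods, a fold of mean signals above 2 without a test, 5 members were lower (*Brca1*, *Brca2*, *Xrcc3*, *Blm* and *Tipin*) and none higher, against 6.01% and 4.87% of all probe sets under that rule. These 5 passed the filter through the control pools alone, as their medians in *Myc*-deficient pools were below 30. Their count therefore leans towards lower values.

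*Brca1* had signals of 43.2, 57.1 and 29.4 in control pools and 0.156, 0.731 and 13.8 in *Myc*-deficient pools, which did not overlap. The log2 difference was -1.54 ± 0.44 (SE, p = 0.0041, adjusted p = 0.59), at least 1.39-fold lower against the background level. *Tipin* had 104, 77.4 and 84.6 against 49.97, 21.3 and 27.3, again without overlap, and a difference of -1.14 ± 0.41 (p = 0.016, adjusted p = 0.71). These are the members with an unadjusted p under 0.05.

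The leading members of the other roles overlapped between the groups. *Rad54l* had 157, 72.8 and 157 in control pools and 104, 31.4 and 72.8 in *Myc*-deficient pools (-0.80 ± 0.46, SE, adjusted p = 0.81). It was read here by another probe set than in tissue. The probe set used in tissue had mean signals of 23.5 in control and 14.4 in *Myc*-deficient pools and was not tested. *Blm* had 34.7, 47.8 and 24.4 against 8.39, 4.24 and 33.3 (-0.81 ± 0.46, adjusted p = 0.81), with pool 3 at the level of the controls. *Fancg* had 376, 93.7 and 29.2 against 259, 102 and 231 (0.68 ± 0.65, adjusted p = 0.88), and its sign turned without control pool 3 (-0.05). *Msh6* had 348, 188 and 305 against 247, 187 and 242 (-0.26 ± 0.34, adjusted p = 0.91). *Rad54l* and *Msh6* were lower in each of the 3 same-numbered pairs of pools, and with the pairs as a block their adjusted p was 0.43 and 0.74. Complete separation below the controls was seen in 4 of the 23 tested members, *Brca1*, *Brca2*, *Fanca* and *Tipin*, against 6.32% of all tested probe sets. Of these members, *Brca1*, *Brca2* and *Tipin* passed the filter through the control pools alone, so that the count leans towards lower values. The untested *Chek1* and *Rad54b* also separated, but the share of 6.32% does not cover them. For *Rad54b* the closest signals were 1.27 in control and 1.12 in *Myc*-deficient pools, far below 30. Other untested probe sets of *Chek1* went both ways, and a dimmer one separated above the controls (mean signals of 20.5 against 11.5).

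Pools of *Myc*-deficient cells were not alike in proliferation. *Mki67* had 701, 949 and 691 in control pools and 136, 59.7 and 801 in *Myc*-deficient pools, the third being at the level of the controls. The mean difference of the 34 members from control pools was -0.39 in *Myc*-deficient pool 1, -0.53 in pool 2 and -0.07 in pool 3, and that of the 16 proliferation markers -1.47, -1.25 and -0.52. Of 11 proliferation markers tested, 10 were lower at an unadjusted p under 0.05 and none was called. Their part in the lower signals of the members was not tested. With *Myc*-deficient pool 3 left out, no member was called either.

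**Figure D3:**
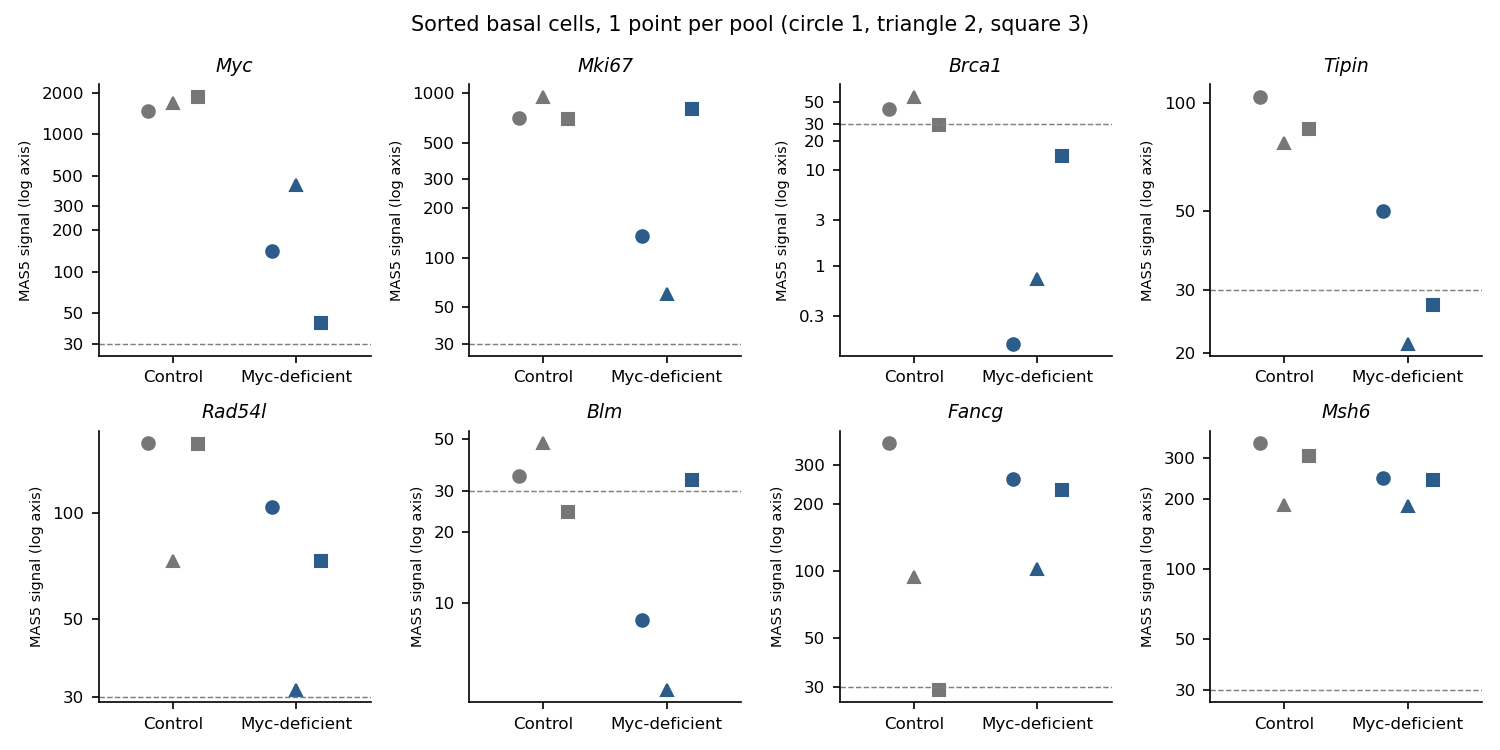
MAS5 signal (log axis) of *Myc*, *Mki67* and 6 members in sorted basal cells, 1 point per pool, with the background level of 30 as a dashed line. *Brca1* and *Tipin* are lower in all 3 *Myc*-deficient pools than in all control pools, and the third pool (square) has *Mki67* and *Blm* at the level of the controls.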

How the data were processed

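Mammary tissue (25 samples) and sorted basal cells (6 pools) were hybridised to Affymetrix mouse expression arrays, 1 array per sample. Tissue RNA was labelled with a one-cycle kit. Sorted cells were pooled from several mice per array, and their RNA was amplified with NuGEN kits. The deposited values are intensities: the authors computed MAS5 signals in Affymetrix Expression Console, per the submitters' processing notes, scaled to a trimmed mean of 100 on each array. A version was not given in the sources used here. Since nothing in the labels says that tissue samples came from separate animals, lesions of the same mouse may count as separate samples. The p-values may then in part measure spread within animals and not between them.

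Control probe sets (64) were left out. Probe sets were named from the array's annotation, and a gene was represented by its brightest probe set with 1 symbol, taken over the arrays of the fit. No other tested probe set of a member was called in the opposite direction. Linear models were fitted by limma 3.58.1 (R 4.3.3; moderated variances with a trend) to log2(signal + 16), an offset that shrinks differences of dim genes, once for the 25 tissue arrays and once for the 6 sorted pools. A probe set entered a comparison if its median reached 30, the background level in the study's methods, in 1 of both groups. Calls were made where the p adjusted after Benjamini and Hochberg, over all probe sets entered, was under 0.05. Errors of log2 differences are standard errors and errors of signals are SDs. The fit was checked on simulated data. The number of arrays limits the precision.

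The members, gene lists and tests were chosen with earlier results of these data known. All members were named, and values by sample (lowest, median and highest for the 11 tumors) were given for *Brca1*, for the called member with the largest difference of each role, or the largest tested where none was called, and for called members that moved against most of their role. The other lists show up to 3 rises and 3 falls each. Same-numbered pools of sorted cells deviated together (correlations of 0.221, 0.231 and 0.259 over 19737 probe sets), whereas those of tissue did not (-0.146 to 0.106). The replicate numbers were left out of the main fits and entered as a block in an alternative fit. Standard errors and p-values of sorted cells are thus unpaired, except where a block is named. Promoter windows were taken from RefSeq (GRCm38.p6). No coordinates of the probe sets are given, as no genome was used. 31 arrays were used and none was left out.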

Additional observations from a re-analysis of the deposited data

Results flagged for a closer look

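Of 102 sets of values (34 members in control tissue, small and large hyperplasias), 7 held a sample far from the others of its group, where chance flags about 1 in 20. In control sample 1 the *Brca1* signal was 30.1 against 11.2 to 12.7 in the other 3, and the *Palb2* signal 23.2 against 31.3 to 32.5. In control sample 3 the *Rad50* signal was 170.7 against 203.9 to 204.5. *Fancl* had 87.7 in small hyperplasia 2 against 117 to 129. In large hyperplasias, *Fancb* had 13.6 in sample 3 against 21.2 to 23.5, *Chek2* 20.2 in sample 1 against 44.8 to 57.8 and *Clspn* 64.0 in sample 4 against 41.4 to 46.3. Large hyperplasia 1 also had the lowest *Rad51ap1* and *Ube2t* signals of its group.

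The change from control tissue differed between lesion stages, tested as the difference of the stages themselves, in 11 members between tumors and large hyperplasias and in 1 between large and small hyperplasias. The log2 differences of tumors from large hyperplasias were 0.30 for *Brca1*, 0.60 for *Rad51ap1*, 0.57 for *Exo1*, 0.34 for *Chek1*, 0.50 for *Chek2*, 0.48 for *Clspn* and 0.26 for *Tipin*, and -0.39 for *Nbn*, -0.40 for *Rad50*, -0.59 for *Fancc* and -0.66 for *Atm*. That of large from small hyperplasias was 0.40 for *Atm*. All of these were read by the brightest probe set. The calls of *Brca1*, *Chek1*, *Tipin* and *Nbn* between tumors and large hyperplasias were lost without certain single samples. So was that of *Atm* between large and small hyperplasias.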

How the results depend on the processing

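No called member changed its sign under any alternative in which it was tested. In tumors against control tissue, 15 members were higher and 6 lower, and 15 to 16 and 4 to 6 with any 1 sample left out. Averaging probe sets gave 8 higher, as several averages fell below 30, the methods' fold rule gave 0 lower, and tumors 1 to 3 alone, chosen after seeing the data, gave 3 lower. In large hyperplasias against control tissue (11 higher, 1 lower; 10 to 12 and 1 to 2 with a sample left out, 2 being without control sample 4), averaging gave 5 higher and 0 lower, quantile normalization 2 lower, and the methods' t-test, the methods' fold rule and the replicate block 0 lower each. In small hyperplasias against control tissue (11 higher, 1 lower; 9 to 12 and 0 to 1 with a sample left out), a floor at 30 gave 6 higher, the methods' t-test 5, the methods' fold rule 6 and averaging 5, quantile normalization gave 2 lower, and no filter, the methods' t-test, the replicate block, only the 2 groups in the model and the methods' fold rule gave 0 lower. In tumors against large hyperplasias (7 higher, 4 lower; 4 to 8 and 4 to 5 with a sample left out, 4 being without large hyperplasia 3), the methods' t-test, averaging and the replicate block gave 4 higher each, the methods' fold rule 0 higher and 0 lower, and tumors 1 to 3 alone 2 higher and 1 lower. In large against small hyperplasias (1 higher; 0 to 1 with a sample left out), no filter, the methods' t-test and the methods' fold rule gave 0 higher. In sorted cells 0 members were called under every tested alternative, the replicate block included, and the methods' fold rule gave 5 lower. The difference of *Fancg* there ran from -0.051 without control pool 3 to 1.51 without control pool 1. The causes were not tested. In tissue, same-numbered samples did not deviate together, and the replicate block gave 13 higher and 4 lower in tumors against control tissue. Signals near 30 limit what can be read for dim members.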
